A study of Homo sapiens with 3 samples.

Results

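The binding landscape described here is that of chromosome 11 in the chromatin map of the transcription factor FOXA2 in Caco2 cells. Caco2 is a long-established line grown from a human colorectal adenocarcinoma, and it serves in the laboratory as a stand-in for gut epithelium. Its members were chosen by chromosome alone: every peak on chromosome 11 (hg19) in either of the 2 replicate peak lists. They are 4034 of 63949 peaks in replicate 1 and 1798 of 26907 in replicate 2. A replicate 1 peak that a replicate 2 peak overlapped by at least 1 bp was called a shared site, and 1599 of the 24345 shared sites lay on this chromosome. They are 39.6% of its replicate 1 peaks, where 38.1% of the whole list were shared, and 88.9% of its replicate 2 peaks were overlapped in turn, where the whole list gave 90.5%. The chromosome had been selected with its high density already known from these lists, so its density is given as a description. Windows that hold few sites, such as the olfactory receptor clusters, had been selected in the same way.

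The study was a ChIP-seq experiment, in which an antibody recovers the DNA that a protein holds and the recovered fragments are sequenced. Both FOXA2 libraries came from Caco2 cells grown in low-glucose DMEM with 10% serum and used the same FOXA2 antibody, and 1 input library was made without antibody. No treatment or genotype distinguished the samples, so the 2 immunoprecipitations are replicates of 1 condition and no group comparison was possible. The labels do not say that they came from separate cultures, and the difference between them may be technical. Tags (sequenced fragment ends) numbered 26183147 in replicate 1, of which 8.72% lay in peaks, and 15756702 in replicate 2, of which 5.16% did. Caco2 cells are 1 line from 1 tumour, and neither gene expression nor copy number was analysed here.

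FOXA2 is a forkhead (winged helix) protein and a pioneer factor: it can bind its site in DNA that is wrapped around nucleosomes and let other factors follow. It is needed to form the foregut endoderm, and in the liver, pancreas and gut epithelium it works beside FOXA1 and the HNF factors on genes of lipid, glucose and bile acid metabolism. Most of its sites in any tissue lie between genes or in introns, and the nearest gene need not be the one that a site serves. Chromosome 11 carries genes of these programmes, among them the apolipoprotein cluster on the q arm. It also carries gene families best known from other tissues, chiefly olfactory receptors and globins, whose expression was not measured here.

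Chromosome 11 held 12.2 shared sites per occupied Mb, where an occupied Mb is a 1 Mb bin that contains a peak of either replicate. The other chromosomes together held 8.43, so the ratio was 1.45. Replicate 1 alone gave 30.8 peaks per Mb against 22.2, a ratio of 1.39, and replicate 2 alone gave 13.7 against 9.30, a ratio of 1.48. The chromosome ranked 1 among the 23 chromosomes compared (1 to 22 and X) in each of these 3 counts. The margin was small in replicate 1, where chromosome 20 held 30.7 peaks per Mb, and larger among shared sites, where chromosome 2 was next with 10.1. Chromosome 11 made up 4.63% of the occupied Mb, 6.57% of shared sites, 7.58% of the summed mean score and 9.18% of the sites with a mean score of at least 100. The score is the authors' normalised tag number at a peak.

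The excess over the other chromosomes lay on the q arm. The p arm, with 430 shared sites over 51 occupied Mb, held 8.43 per Mb, which is 1.00 times the density of the other chromosomes. The q arm, with 1169 shared sites over 80 occupied Mb, held 14.6 per Mb, or 1.73 times that density. The ratio of the q arm to the p arm was 1.73 for shared sites, 1.58 for replicate 1 peaks and 1.79 for replicate 2 peaks, so both replicates put the q arm higher. The arms were divided at the centromere interval, 51.6 to 54.7 Mb. No other chromosome was divided by arm here, so how the q arm ranks among single arms is not known.

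**Figure D1:**
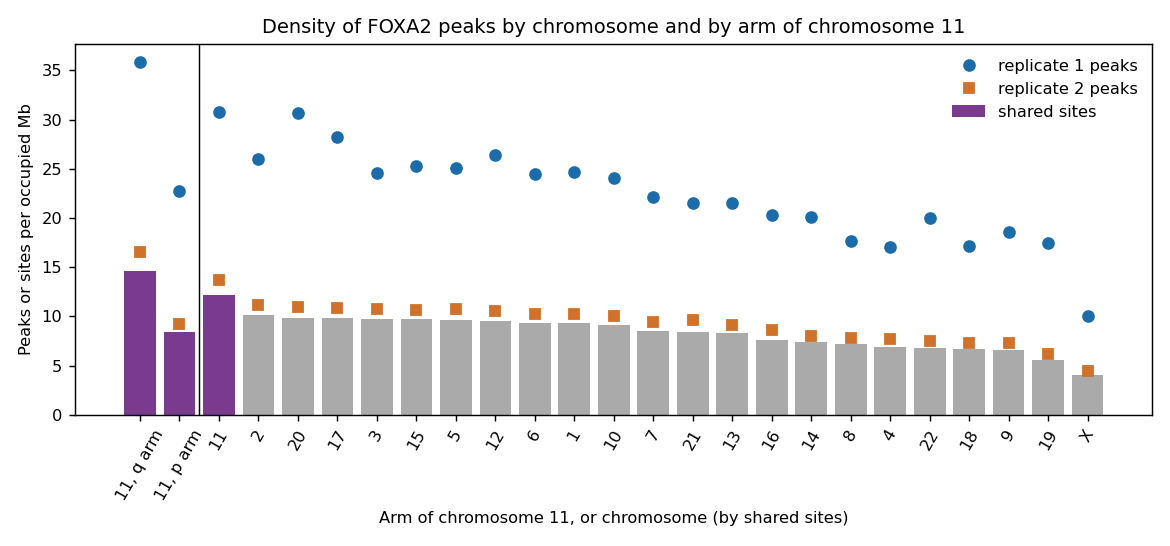
Density of FOXA2 peaks for the arms of chromosome 11 (left of the line) and for each of 23 chromosomes. The vertical axis gives peaks or sites per occupied Mb; bars are shared sites (purple for chromosome 11 and its arms, grey for the others), circles replicate 1 peaks and squares replicate 2 peaks. The q arm stands at 14.6 shared sites per Mb and the p arm at 8.43, which falls among the other chromosomes.

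Sites on the q arm also had higher scores than those on the p arm or the pooled other chromosomes. At shared sites the median score was 20 in replicate 1 and 15 in replicate 2 on the q arm, against 16 and 11 on the p arm and 16 and 12 on the other chromosomes. Sites with a mean score of at least 100 numbered 31 on the q arm, 2.65% of its shared sites, and 5 on the p arm, 1.16%. On the other chromosomes together that share was 1.57%. The level was not particular to the q arm: on chromosome 20 the median scores were 20 and 14, and 2.50% of shared sites reached 100. Sites of the q arm lay closer together as well: 43.5% had another shared site within 10 kb, against 35.8% on the p arm and 38.8% elsewhere. A denser arm gives closer neighbours by its density, and this was not separated here.

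Sites were unevenly spread along the chromosome. Of the 135 bins of 1 Mb up to the last peak, 131 were occupied, and an occupied bin held a median of 10 shared sites (quartiles 5 and 18). The 26 bins with 20 or more sites held 41.5% of all shared sites. Of these bins, 21 were on the q arm, which held 80 of the 131 occupied bins. The 34 occupied bins with 5 or fewer held 5.69%. Counts in the replicates followed each other across bins, with a Spearman coefficient of 0.92 over the 131 bins. That is a description only, because the bins share libraries, cell line and peak caller.

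**Figure D2:**
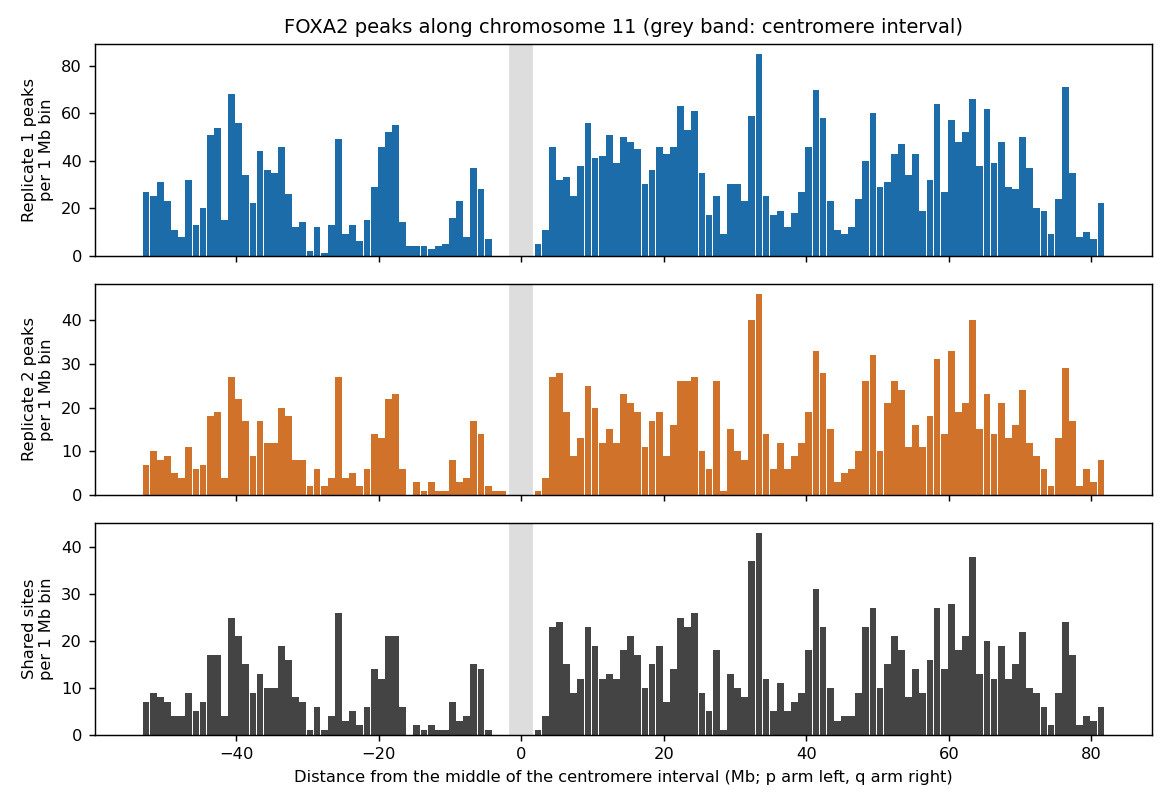
Peaks in each 1 Mb bin of chromosome 11 against distance from the middle of the centromere interval in Mb, for replicate 1 (top), replicate 2 (middle) and shared sites (bottom). Bars are counts per bin and the grey band is the centromere interval; the highest shared bar holds 43 sites and lies on the q arm, and low stretches flank the centromere and part of the p arm in both replicates.

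The 10 richest bins held 308 shared sites, 19.3% of the total. Of these bins, 9 were on the q arm, which held 80 of the 131 occupied bins. The bin from 86 to 87 Mb came first, with 85 peaks in replicate 1, 46 in replicate 2 and 43 shared. As background, it contains ME3, a mitochondrial malic enzyme, the secreted protease PRSS23 and the Wnt receptor gene FZD4. Its neighbour from 85 to 86 Mb held 59, 40 and 37, and spans SYTL2, which encodes a protein of vesicle trafficking, and PICALM, a clathrin assembly gene. These adjacent bins together formed the highest point of the chromosome in both lists.

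The second richest bin, from 116 to 117 Mb, held 66 peaks in replicate 1, 40 in replicate 2 and 38 shared. It contains the APOA5, APOA4, APOC3 and APOA1 genes, whose products coat the lipoproteins that carry dietary and hepatic fat, and the kinase gene SIK3. The bin from 94 to 95 Mb held 70, 33 and 31 and includes AMOTL1, a regulator of YAP in epithelial junctions. The bin from 113 to 114 Mb, with 57, 33 and 28, reaches into ZBTB16, a zinc finger repressor. The richest p arm bin, from 27 to 28 Mb, held 49, 27 and 26 and contains LGR4, a receptor for R-spondins that raises Wnt signalling in intestinal crypts.

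The remaining 4 of the 10 were the bins from 111 to 112 Mb with 27 shared sites, 102 to 103 Mb with 27, 77 to 78 Mb with 26 and 75 to 76 Mb with 25. They contain, in that order, POU2AF1, BIRC3 with the matrix metalloproteinase cluster, the kinase gene PAK1, and MOGAT2 with DGAT2, acyltransferases of triglyceride synthesis. The bin ranked 11 also held 25 sites, so the end of this list is set by its lower summed score. Of the 10 bins with the most replicate 1 peaks, 7 were among these 10, and the same number held for replicate 2.

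Bins that held more sites also had a higher median score, and their replicate 1 peaks were more often shared. The median mean score was 18.5 in the 10 richest bins, 12 in the bins with 5 or fewer sites and 16.5 in all others. A mean score of at least 100 was reached by 9 of 308 sites in the richest bins (2.92%) and 27 of 1200 in all others (2.25%). None of the 91 sites in the bins with 5 or fewer reached it, but the share over all chromosome 11 shared sites was only 2.25%. Of the replicate 1 peaks, 48.6% (95% Wilson interval 44.7 to 52.5) were shared in the richest bins and 31.4% (26.3 to 36.9) in the poor ones. The bins were ranked by shared sites, so the latter difference is partly set by the ranking. The intervals cover counting error only.

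In blocks of 10 Mb, the stretch from 110 to 120 Mb was the densest, with 20.7 shared sites per Mb. It also had the highest median scores of any block with 100 or more shared sites, 24 in replicate 1 and 19 in replicate 2, and 10 of the 36 sites of the chromosome with a mean score of at least 100. The sparsest block, from 40 to 50 Mb beside the centromere, held 4.8 shared sites per Mb with median scores of 15 and 10 and 1 such site. The ratio of replicate 1 to replicate 2 peaks moved along the chromosome between 1.59 in the block from 50 to 60 Mb and 2.84 in the block from 0 to 10 Mb. The share of replicate 1 peaks found again ran from 52.8% to 32.0% in the same blocks.

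Shared sites were separated by a median of 31.9 kb (quartiles 10.0 and 89.0), against 39.6 kb on the other chromosomes, and 8 gaps exceeded 1 Mb. The longest, 7.59 Mb, ran across the centromere from 48123634 to 55710428 and held 2 replicate 1 and 3 replicate 2 peaks that did not overlap each other. The gaps of the p arm included 36911997 to 38190933 (1.28 Mb), 38366987 to 39511611 (1.14 Mb), 41211817 to 42227212 (1.02 Mb) and 42227212 to 43373754 (1.15 Mb). These lie in and around the gene-poor stretch that holds LRRC4C, a synaptic adhesion gene. The p arm gaps from 28190471 to 29209594 (1.02 Mb) and from 44738002 to 45820747 (1.08 Mb) lie farther from that gene. On the q arm the gap from 81108466 to 82406813 (1.30 Mb) falls in the gene desert between TENM4 and FAM181B. It held 7 replicate 1 peaks and no replicate 2 peak.

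The strongest shared site by mean rank, chr11:116679078-116679200, lies between APOA5 and APOA4 and scored 339 in replicate 1 and 259 in replicate 2 (299 ± 56.6, SD, n = 2). The next, chr11:46295541-46295663, lies between PHF21A and CREB3L1, a membrane-bound transcription factor of secretory cells, and scored 290 and 232 (261 ± 41.0, SD, n = 2). The third, chr11:110176517-110176639, lies between RDX, which encodes the membrane-cytoskeleton linker radixin, and FDX1, and scored 267 and 255 (261 ± 8.49, SD, n = 2). For comparison, the median score of all listed chromosome 11 peaks was 9 in replicate 1 and 13 in replicate 2. These 3 sites were chosen by their scores, so their place more than 10 times above the typical peak in each list follows from the choice. The gap between their replicate scores was smaller than that distance.

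Next by rank came a site inside PAX6, a regulator of eye and pancreatic islet development, at chr11:31833592-31833714 with scores of 239 and 175 (207 ± 45.3, SD, n = 2). It stood alone: the nearest other shared site was 109 kb away. Another isolated strong site, chr11:128985643-128985765 inside ARHGAP32 scored 166 and 170 (168 ± 2.83, SD, n = 2), and its nearest neighbour was 133 kb away. A pair of strong sites lay inside DLG2, a scaffold gene of synapses, at chr11:83422146-83422268 with 188 and 190 and at chr11:83359786-83359908 with 200 and 122. They are 62.4 kb apart, so strong sites also occurred in a gene best known from neurons.

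Among metabolic genes, the site chr11:14908272-14908394 lies inside CYP2R1, the liver vitamin D 25-hydroxylase, and scored 191 and 178 (184.5 ± 9.19, SD, n = 2). The site chr11:75474030-75474152 between MOGAT2 and DGAT2 scored 215 and 116 (165.5 ± 70.0, SD, n = 2), the widest spread of the named sites. The site chr11:76772346-76772468, between the mucin-type glycosyltransferase gene B3GNT6 and the calpain gene CAPN5, scored 206 and 169. The site chr11:111205523-111205645, between POU2AF3 and POU2AF1, coactivator genes for POU factors that include one used by tuft cells, scored 176 and 146.

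The other 9 named sites had mean scores from 122.5 to 160.5. They lie between SSH3 and POLD4 (chr11:67113575-67113697), in the desert between TENM4 and FAM181B (chr11:80306184-80306306), inside RCN1 (chr11:32125063-32125185) and inside ZNF143 (chr11:9532461-9532583). Further ones are between CADM1 and BUD13 (chr11:116247384-116247506), beyond NNMT, a nicotinamide methyltransferase gene (chr11:114186774-114186896), and inside CD3E (chr11:118185853-118185975). The last of them lie at ANKRD42 beside CCDC90B (chr11:82967818-82967940) and between GUCY1A2 and CWF19L2 (chr11:107028692-107028814). CD3E encodes a component of the T cell receptor complex, and the name gives only where the site lies, since the expression of these genes was not measured.

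**Figure D3:**
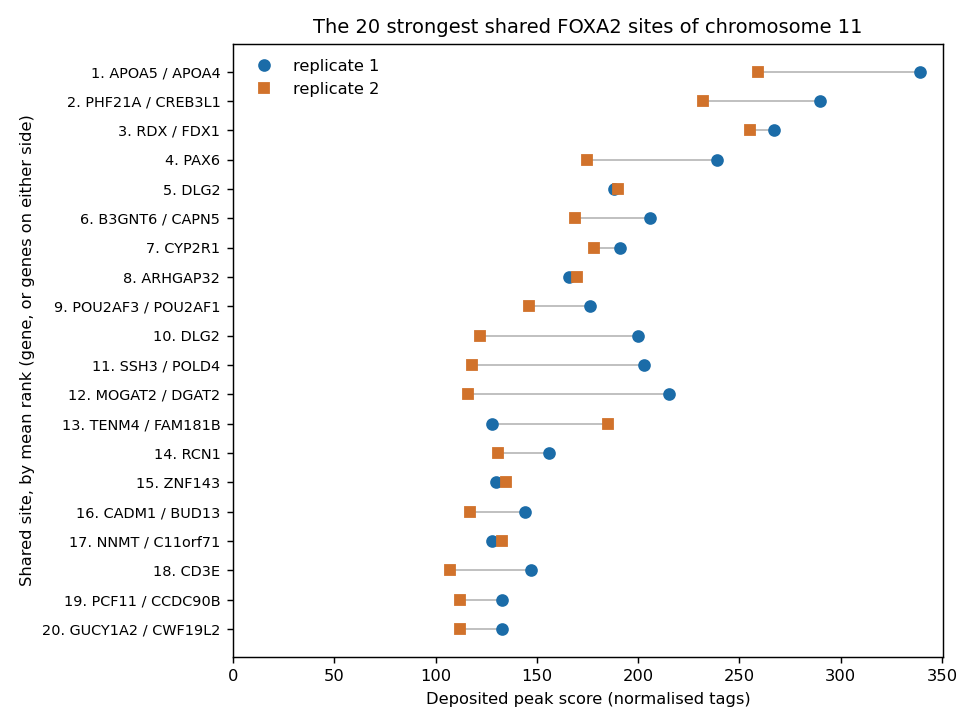
Deposited peak scores of the 20 best-ranked shared sites of chromosome 11 in replicate 1 (circles) and replicate 2 (squares), with a grey line joining the 2 values of a site. Rows follow mean rank and name the gene that holds the site or the genes on either side; 15 of the 20 are higher in replicate 1, and the site between TENM4 and FAM181B shows the clearest opposite order.

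As a group, the 20 sites made up 1.25% of shared sites and 8.57% of the summed mean score. The q arm held 15 of them and the p arm 5, a split close to that of all shared sites (1169 and 430), and 12 were among the 100 best shared sites of the genome. Chromosome 11 held 6.57% of all shared sites, and the 20 were chosen by the same scores. Replicate 1 gave the higher score at 15. The median ratio of replicate 1 to replicate 2 score was 1.22 on chromosome 11 and 1.20 elsewhere, and the share of all shared sites higher in replicate 1 was not computed. The site at 80306184 was the clearest exception, with 128 in replicate 1 and 185 in replicate 2. The 20 sites fell in 18 different bins, and 4 of them lay in the 10 richest, which hold 19.3% of all shared sites: the strongest sites were about as frequent there as shared sites in general. By background position, 8 of the 20 lie inside genes and 12 between them or at a gene's edge. Just outside the list were chr11:95221179-95221301 (104 and 185) and chr11:129194570-129194692 (155 and 100), close to the last included sites, which scored 133 and 112.

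Runs of sites, in which each shared site lay within 10 kb of the next, were mostly on the q arm. There were 32 runs of 4 or more sites, and they held 149 sites, 9.32% of the total. The q arm had 28 of these runs and 1169 of the 1599 shared sites. A denser arm gives more runs by its density, and this was not separated here. The run with the highest median score lay beside RDX, from 110169184 to 110190433: its 5 sites had a median mean score of 97.5 and a lowest mean of 38.5, so each of them stood above the chromosome median of 16.5. A run of 6 sites over POU2AF1, from 111205523 to 111231153, had a median of 40.8, and another 6 within SIK3, from 116940852 to 116966765, had 32.3.

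The longest run lay on the p arm in NAV2, a gene of cytoskeletal guidance in neurons, where 10 sites from 20016870 to 20053492 had a median mean score of 21 and a highest of 97. The next, in ZBTB16, held 8 sites from 113948557 to 113980392 with a median of 35. A run of 7 sites over SYTL2, from 85491284 to 85525022, had a median mean score of 21 and a highest of 60.5. The tightest run of 5 or more packed 5 sites into 6.997 kb between DRD2 and TMPRSS5, from 113534877 to 113541873, with a median of 14. Runs of 5 also lay between BARX2 and TMEM45B (129656065 to 129670794, median 17) and beside PRSS23 (86487464 to 86508423, median 17.5). Replicate 2 called as many peaks as there were shared sites in each of the last 4 runs. The 937 sites with no neighbour in reach remained the most common arrangement.

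The olfactory receptor clusters at 11p15.4 and 11q11-q12 were low stretches outside the centromere. Olfactory receptors are G protein-coupled odour receptors made in nasal neurons, and chromosome 11 carries a large share of them: RefSeq lists 171 protein-coding ones there. The 11p15.4 cluster, from 4.4 to 6.2 Mb, held 13 replicate 1 peaks, 5 replicate 2 peaks and 5 shared sites, or 2.78 per Mb. The chromosome density would give 21.97 over that length, and the lower density of the p arm 15.2. Flanks of the same length held 12 and 14, more than the cluster. The right flank includes the further receptor windows at 6.7 to 7 Mb and 7.8 to 8 Mb, which held no shared site. The 11q11-q12 cluster, from 55 to 56.6 Mb, held 11 and 4 peaks and 4 shared sites, or 2.5 per Mb, where the chromosome density would give 19.5 and that of the q arm 23.4. Its right flank held 24, while its left flank reached the centromere and held 0. The right flank takes in part of a further receptor window, at 57.7 to 58.4 Mb.

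Those clusters were not empty, and 1 of their sites was strong. In 11p15.4 the site chr11:5642554-5642676, at TRIM34 in the antiviral TRIM gene group inside the cluster, scored 93 and 87 (90.0 ± 4.24, SD, n = 2). The other 4 scored between 7 and 27 in replicate 1 and between 6 and 15 in replicate 2. They were chr11:4451543-4451665, chr11:5004090-5004212, chr11:5025788-5025910 and chr11:5402128-5402250. In 11q11-q12 the 4 sites were chr11:55710428-55710550 (28 and 15), chr11:56211061-56211183 (5 and 9), chr11:56241690-56241812 (6 and 10) and chr11:56242319-56242441 (26 and 22). The last 2 of these lie within 1 kb of each other. The beta-globin genes, which encode the oxygen carrier of red cells and sit inside the 11p15.4 cluster (5.2 to 5.3 Mb), held no peak in either replicate. An empty window of that length is common: of all 0.1 Mb tiles along the chromosome, 44.9% held no shared site.

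Low density was not a property of every receptor cluster. Among the 6 further receptor windows, 3 held no shared site: 6.7 to 7 Mb, 7.8 to 8 Mb and 48.2 to 50.1 Mb, of which the last lies beside the centromere. The first and second of these are short, and 27.6% of all 0.2 Mb tiles along the chromosome held no shared site. The other 3 were near the chromosome density of 12.2: 57.7 to 58.4 Mb with 8 sites (11.4 per Mb), 59.1 to 59.5 Mb with 5 (12.5 per Mb) and 123.6 to 124.5 Mb with 13 (14.4 per Mb). Each of these 3 contains or borders genes of other families. In all, the 8 receptor windows held 35 shared sites over 7.8 Mb, or 4.49 per Mb, and none of the 8 exceeded the density of its own arm.

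Windows were also drawn around listed genes of other classes and counted whole. Over tiles of 0.1 Mb along the chromosome, 29.3% exceeded the chromosome density and 44.9% held no shared site. Over tiles of 0.2 Mb, 36.6% exceeded it and 27.6% held none, and over tiles of 1 Mb, 42.7% and 2.29%. The windows differ in length from 0.1 to 2.3 Mb, some overlap, and no test was made of the lists. Of the 13 windows of epithelial and secreted protein genes, 10 exceeded the chromosome density, and together they held 63 shared sites over 2.8 Mb, or 22.5 per Mb. The YAP1 and BIRC3 windows in that list overlap, so some sites are counted under both.

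Within the epithelial list, the window of LGR4 (27.3 to 27.5 Mb) held 9 shared sites among 17 replicate 1 and 9 replicate 2 peaks. The window of YAP1 (101.9 to 102.2 Mb), the growth coactivator of the Hippo pathway, held 13 among 24 and 14. The EHF and ELF5 window, which holds genes of epithelial ETS factors, had 7, and the window of the adhesion receptor CD44 had 6. POU2F3, the tuft cell factor, had 4 in 0.1 Mb, the strongest of which scored 19 and 11. The gel-forming mucin window at 1 to 1.3 Mb, by contrast, held 1 site, scoring 34 and 17, and KCNQ1, a potassium channel gene, 2 over 0.5 Mb. The 3 windows below the chromosome density were the mucins, the window of SCT with EPS8L2, and KCNQ1, all in the first 3 Mb of the p arm.

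The list of enterocyte and lipid genes was mixed, with 19 shared sites over 1.5 Mb, or 12.7 per Mb, and 4 of 8 windows above the chromosome density. The MOGAT2 and DGAT2 window held 6 and the apolipoprotein window (116.6 to 116.8 Mb) 5. The window of CPT1A, the liver carnitine palmitoyltransferase of fatty acid oxidation, held 4, and DHCR7, of cholesterol synthesis, 2. The fatty acid desaturase window and the window of SLC37A4, a glucose 6-phosphate transporter of gluconeogenic tissue, held 1 each. The window of ACAT1, of ketone body metabolism, held no shared site but 6 replicate 1 peaks and 1 replicate 2 peak. FOLH1, a folate hydrolase of the brush border, held no peak, and its window lies inside the receptor window beside the centromere.

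Transcription factor genes gave 47 shared sites over 2.6 Mb, or 18.1 per Mb, with 5 of 10 windows above the chromosome density. Above the density of their own arm were 7, but a short window needs few sites for that. The windows of MYOD1 and PAX6 passed with 1 shared site each in 0.1 Mb. The share of tiles above the density of their arm was not computed. The window of ZBTB16 accounted for 18 of them in 0.3 Mb, the highest density of any window, 60 per Mb. Its strongest site, chr11:114186774-114186896, is the one placed above beyond NNMT, so not all of the 18 lie in ZBTB16. The window of ETS1 held 6, with its strongest site, chr11:128435906-128436028, at 103 and 145 (124 ± 29.7, SD, n = 2). The adjoining window of the related FLI1 held 1, at 12 and 8. LMO2, a blood cell regulator, held no shared site and 5 replicate 1 peaks. SOX6 held 12 over 0.9 Mb, or 13.3 per Mb, close to the chromosome as a whole but above the 8.43 per Mb of its own p arm.

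None of the 12 windows of neural and synaptic genes exceeded the density of the chromosome or that of its own arm, and together they held 57 shared sites over 10.9 Mb, or 5.23 per Mb. The windows of LRRC4C (1.43 per Mb), CNTN5 (2.67), NTM (2.73) and KIRREL3 (2.86) were at the low end. DLG2 held 22 over 2.3 Mb (9.57 per Mb) and GRIA4, a glutamate receptor gene, 6 over 0.5 Mb (12 per Mb), close to the chromosome density of 12.2. The windows range from 0.2 to 2.3 Mb, and those of NTM and OPCML overlap. A sparse window could still hold a single higher site: chr11:99879321-99879443 in the window of CNTN5 scored 70 and 72 (71 ± 1.41, SD, n = 2).

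**Figure D4:**
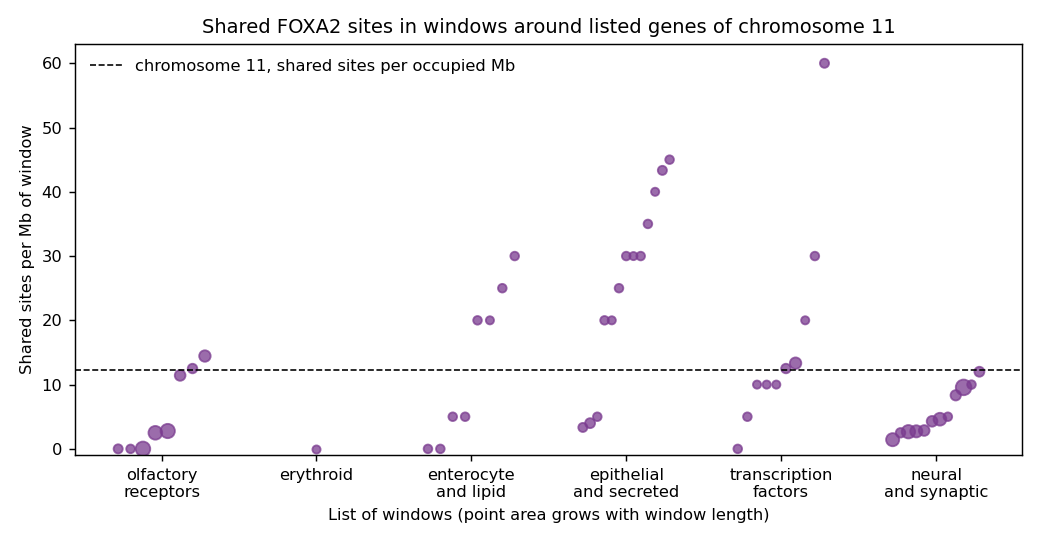
Shared sites per Mb in each window around listed genes, by list; each point is a window and its area grows with the window's length. The dashed line is the density of chromosome 11, 12.2 per occupied Mb; 10 of 13 epithelial and secreted windows lie above it, and none of the 12 neural and synaptic windows does.

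The replicates were compared at each peak. The 39.6% of replicate 1 peaks on chromosome 11 that were shared had a 95% Wilson interval of 38.1 to 41.2, and the 88.9% of replicate 2 peaks one of 87.4 to 90.3. Both shares were near those of the genome, and the shorter replicate 2 list was nearly contained in the longer one. By arm, 40.7% of replicate 1 peaks were shared on the q arm and 37.0% on the p arm. At 159 shared sites, 9.94%, the score ratio was more than 2-fold from the genome's median ratio, close to the 9.77% of all shared sites. The median score ratio of replicate 1 to replicate 2 was 1.32 on the p arm and 1.19 on the q arm.

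Peaks found in only 1 replicate were mostly weak. The 2435 found only in replicate 1 had a median score of 7, and 68 scored 20 or more. The 199 found only in replicate 2 had a median of 8, and 7 scored 20 or more. Several of the highest lay close to a peak of the other replicate: chr11:108464374-108464496 scored 76 in replicate 1, and chr11:108464573-108464723 scored 41 in replicate 2, and their centres are 0.213 kb apart. The replicate 2 peak chr11:18921757-18921907, which scored 64, lay 0.352 kb from a replicate 1 peak. Others did not: the replicate 2 peaks chr11:74869437-74869587 (score 25) and chr11:61950022-61950172 (score 20) lay 1.3 and 5.63 kb from the nearest replicate 1 peak. The peak chr11:85195039-85195161 in DLG2 scored 570 in replicate 1, with no replicate 2 peak within 13 kb. That is the highest replicate 1 score on the chromosome, above the 339 of the best shared site, and it is absent from the filtered replicate 2 list. Whether the replicate 2 library held tags there was not examined.

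The peak names may bear on how complete these lists are on chromosome 11. Each name carries a number, read here as the place of a candidate peak among those of its chromosome before filtering. No source used here documents that reading, and it rests on the values alone. The rank correlation of number and score was -0.99 in both lists, although the order is not strictly that of the score: the replicate 1 peak of score 570 has the number 7, and number 1 scored 267. The highest numbers sum over all chromosomes to 79078 in replicate 1, where the header counts 79191 candidates, and to 31589 of 31642 in replicate 2, so on this reading a missing number marks a candidate that the caller's filters removed. On chromosome 11 the numbers reached 6151 in replicate 1, of which 34.4% (95% Wilson interval 33.2 to 35.6) were absent, against 17.8% on the other chromosomes. In replicate 2 they reached 2396, with 24.96% (23.3 to 26.7) absent against 13.7%. Chromosome 11 ranked 2 in replicate 1, after chromosome 20 at 41.5%, and 3 in replicate 2, after chromosomes 20 (37.0%) and 21 (26.5%).

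**Figure D5:**
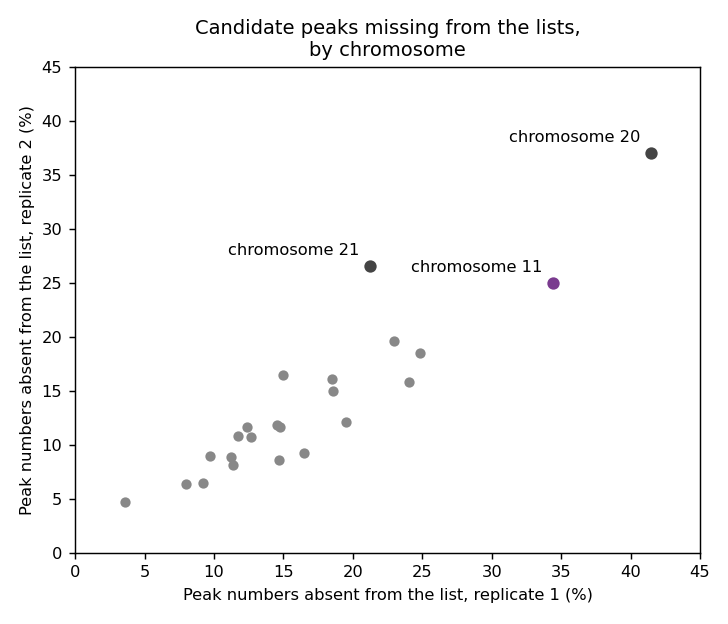
Percentage of peak numbers absent from the list on each chromosome, replicate 1 on the horizontal and replicate 2 on the vertical axis; each point is 1 of 23 chromosomes. Chromosome 11 (purple) lies at 34.4% and 24.96%, and chromosome 20 at 41.5% and 37.0%.

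Absent numbers were the weak ones. In replicate 1 none of the numbers 1 to 100 and 49.2% of those above 2000 were absent. In replicate 2 the shares were 1% and 62.1%. Counted by the highest number, candidates reached 47.0 per occupied Mb on chromosome 11 in replicate 1, against 27.0 on the other chromosomes, and 18.3 against 10.8 in replicate 2. On the same reading the chromosome was high before filtering as well as after, although chromosome 20 reached 52.5 candidates per Mb in replicate 1. Most filtering over the whole genome was against the input library: the headers count 12058 candidates removed this way in replicate 1 and 3854 in replicate 2, against 3180 and 818 removed for local signal. A further 4 in replicate 1 and 63 in replicate 2 were removed as too clonal, the caller's term. The headers do not give these numbers by chromosome. The densities above take no account of DNA copy number, and its part in them was not tested.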

How the data were processed

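FOXA2 ChIP-seq peak lists of 2 Caco2 replicates were used; the input library entered only through the authors' peak calls. The submitters' processing notes name the build hg19 and the tools Bowtie (1.0.0) and HOMER (1.2) without their roles. Peaks were called in each replicate separately with HOMER findPeaks in its factor style against an input, per the file headers. The deposited score of a peak is its number of tags per 10000000, rounded by the authors to whole numbers, so 1 unit stands for 2.62 tags in replicate 1 and 1.58 in replicate 2. The lowest deposited scores were 3 and 5. Peak widths were 123 and 151 bp.

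From these files, overlaps of at least 1 bp, counts in 1 Mb bins by peak centre, densities per occupied Mb, gaps, runs and Wilson intervals were computed with Python 3.11.15, numpy 2.4.6, pandas 2.3.3 and scipy 1.17.1; the functions were tested on simulated data. Shared sites carry replicate 1 coordinates, converted to count from 1. The mean score of a site is over both replicates. Sites were named by 1 rule: the 20 best by mean rank of score in the 2 lists, and the 10 bins with the most shared sites. Other sites and runs are named as examples chosen after their values were seen.

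No hg19 annotation or genome was used here, so no sequence is printed, and counts over exact gene bodies were replaced by windows with bounds rounded to 0.1 Mb. Gene names are background from general knowledge of hg19 gene positions, not read from an annotation of that build. They are least sure for the sites at ANKRD42 and beyond NNMT and for the genes said to lie in each bin. Of the 74 symbols in the windows, 74 are on chromosome 11 in RefSeq's GRCh38.p14 table, which also gave the order of neighbouring genes. The members, lists and windows were chosen with earlier results of these data known, so everything is a description and no test was made. The alternatives tried were another overlap rule, a score minimum of 10, each replicate alone, and other bins, bounds and distance limits.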

Additional observations from a re-analysis of the deposited data

How the results depend on the processing

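Of 49 alternative values for the 9 main results, 36 moved by less than 1.5 times, or by less than the SD between the replicates' own values for shares, the arm ratio and the median score. A reversal was defined only for the ratio of the q arm to the p arm and for the score ratio of the replicates, and neither reversed. A score minimum of 10 raised the ratio of the q arm to the p arm from 1.73 to 2.07, the share of sites in the 10 richest bins from 19.3% to 22.8% and the median mean score from 16.5 to 23.5. It left 2 shared sites in the 11p15.4 receptor cluster and 2 in the 11q11-q12 cluster. With each replicate alone (leaving out the other), the density ranged from 13.7 to 30.8 per Mb, the arm ratio from 1.58 to 1.79, the share in the richest bins from 16.6% to 18.9%, the 11p15.4 count from 5 to 13, the 11q11-q12 count from 4 to 11 and the share with a neighbour within 10 kb from 44.5% to 62.8%. The high end of each count came from the longer replicate 1 list. The neighbour share was 24.9% with a 5 kb limit and 57.9% with a 20 kb limit, as the limit itself sets. No paired analysis was possible because both libraries are of 1 condition and the input's own values were not analysed here. Weak sites limit the lists: rounded scores near the lowest deposited values rest on few tags, and a site missing from the shorter replicate 2 list may lie under its threshold.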
